A study of Homo sapiens with 6 samples.

Results

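Isolated peaks are stretches of H3K27ac enrichment that stand alone on the chromosome. In the SU-CCS-1 clear cell sarcoma (CCS) line, 2035 of the 29942 autosomal peaks with a neighbour on each side lay more than 100 kb from both the previous and the next peak, or 6.80% (95% Wilson interval, 6.52 to 7.09). The gap was the distance from the end of a peak to the start of the next, and the first and last peak of each of the autosomes, 44 in all, were left out for want of a second neighbour. The deposited list held 30784 peaks, 29986 of them on autosomes. The members were chosen by the measured positions of the peaks, so the gaps and the presence of a single peak nearby are a description and were not tested.

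SU-CCS-1 is an established human cell line whose genotype label is EWSR1::ATF1 (EA1), the fusion gene of CCS, and every sample came from this 1 line without treatment or a second genotype. The series comprised 3 H3K27ac chromatin immunoprecipitation sequencing (ChIP-seq) samples and 3 input samples, the input being sonicated chromatin sequenced without antibody. A single merged peak list was deposited, with positions and names but no enrichment value, p-value or replicate column, so no spread between replicates could be computed and the depth behind each peak is unknown. Intervals below are 95% intervals that cover counting error over peaks or genes only, and a locus outside the list may still carry acetylation below the calling threshold. A promoter peak was found at 8 of 10 genes of the melanocytic and neural crest lineage, MLANA and TYR being the exceptions, and at 0 of 10 markers of other cell types, among them PTPRC, PECAM1 and EPCAM. The share over all autosomal coding genes was 62%. Longer lists were less clear-cut, with a promoter peak at 10 of 17 melanocyte lineage genes and 7 of 20 skeletal muscle genes.

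Acetylation of lysine 27 on histone H3 is laid down by p300 and CBP and marks active promoters and enhancers. Promoters of broadly used and of many developmental genes sit in CpG islands, where the CG dinucleotide has escaped loss by methylation and deamination, whereas most enhancers lie in CpG-poor sequence and tend to occur in clusters around lineage genes. ATF1 belongs to the CREB family, which binds the cAMP response element TGACGTCA, and AP-1 factors bind TGAGTCA.

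The composition of the members is easiest to see in their sequence, read from hg38 at the positions in the list. The first pair shows peaks at coding start sites, from 150 bases before to 100 bases after an annotated start. The second pair shows the central 250 bases of the distal peaks whose smaller gap, that on the nearer side, was largest. The smaller gap of the PCDH9 peak in the first pair lay between theirs. Capitals mark each CG dinucleotide.
PCDH9 start (chr13:67230346-67230595, - strand): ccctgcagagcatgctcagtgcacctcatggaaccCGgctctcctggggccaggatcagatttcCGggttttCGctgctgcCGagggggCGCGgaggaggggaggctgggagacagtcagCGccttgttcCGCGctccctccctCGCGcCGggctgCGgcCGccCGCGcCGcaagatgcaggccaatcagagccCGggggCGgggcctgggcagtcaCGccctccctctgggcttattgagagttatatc
MITF upstream start (chr3:69739314-69739563, + strand): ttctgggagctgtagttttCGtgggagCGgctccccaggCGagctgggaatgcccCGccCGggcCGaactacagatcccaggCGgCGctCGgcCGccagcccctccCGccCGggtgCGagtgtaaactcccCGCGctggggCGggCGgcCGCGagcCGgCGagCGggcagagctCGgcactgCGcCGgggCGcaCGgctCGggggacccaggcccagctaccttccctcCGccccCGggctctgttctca
chromosome 13 peak far from coding genes (chr13:63238901-63239150, + strand): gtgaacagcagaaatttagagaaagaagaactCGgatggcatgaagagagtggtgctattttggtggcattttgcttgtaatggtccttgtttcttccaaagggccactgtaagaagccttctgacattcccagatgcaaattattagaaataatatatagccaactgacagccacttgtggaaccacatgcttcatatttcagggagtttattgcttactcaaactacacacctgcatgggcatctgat
peak nearest to CDH9 (chr5:28524131-28524380, + strand): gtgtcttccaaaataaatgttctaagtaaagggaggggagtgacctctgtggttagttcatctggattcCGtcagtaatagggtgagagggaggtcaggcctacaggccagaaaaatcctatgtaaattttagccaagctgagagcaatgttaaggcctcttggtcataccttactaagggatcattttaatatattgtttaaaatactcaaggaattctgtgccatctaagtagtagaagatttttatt
The PCDH9 stretch held 20 CG dinucleotides and the MITF stretch 30, against 1 in each of the other pair.

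The next pair shows TGACGTCA, in capitals, close to the start sites of MAF and CEP57.
MAF (chr16:79600729-79600828, - strand): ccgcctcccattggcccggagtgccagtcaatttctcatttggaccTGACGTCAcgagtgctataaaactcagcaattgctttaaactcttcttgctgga
CEP57 (chr11:95790357-95790456, + strand): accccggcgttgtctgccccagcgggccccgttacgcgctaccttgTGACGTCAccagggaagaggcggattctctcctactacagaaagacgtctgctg
The motif centre lay 42 bases upstream of the canonical MAF start and 91 bases upstream of that of CEP57.

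The median smaller gap of the isolated peaks was 163750 bases, and 192 peaks had at least 500 kb of empty sequence on both sides, 41 of them over 1 Mb. Taken from neighbour to neighbour, the spans around the isolated peaks covered 1500.71 Mb, or 52.2% of the autosomal length of 2875 Mb, while the peaks themselves made up 5.66% of the bases in autosomal peaks. The most isolated peak by its smaller gap was a 690-base peak at chr13:63238681-63239370, with 2839.3 kb to its left and 3990.98 kb to its right. Its right-hand neighbour was the next most isolated, a 1190-base peak at the start of PCDH9, a protocadherin gene of neuronal adhesion. Then followed a 410-base peak whose nearest coding gene was CDH9, at 1402.9 kb, a 480-base peak nearest to FLRT2, at 1321.56 kb, and an 890-base peak at the start of NCAM2, which encodes a neural cell adhesion molecule. At the threshold, the peaks at the starts of ELOVL7 and of ERCC8 and NDUFAF2, which neighbour each other across 100.03 kb, were just inside, as was a peak nearest to DAPK1 at 100.26 kb. Just outside were peaks within PRKCE at 99.92 kb, nearest to ZNF608 at 99.9 kb and within DGKG at 99.88 kb.

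**Figure D1:**
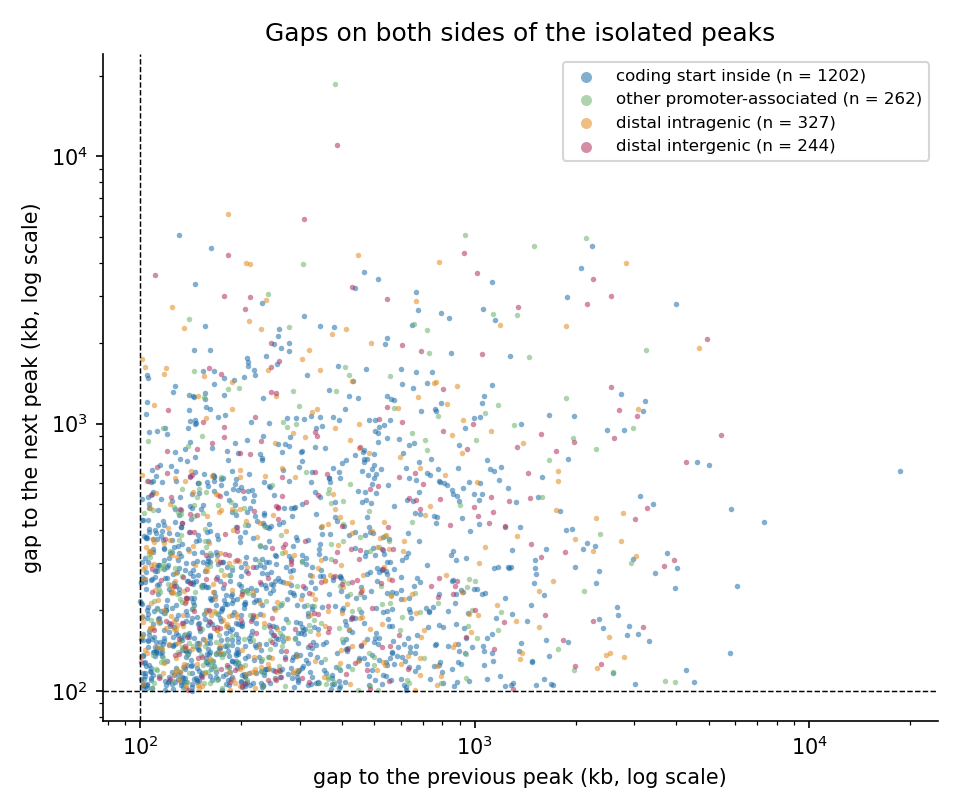
Gap to the previous peak (horizontal, kb) against gap to the next peak (vertical, kb) for the 2035 isolated peaks, both on log scales, coloured by position relative to start sites and genes. Dashed lines mark the 100 kb rule, and the 4 kinds of peak are spread over the whole field.

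An empty span was not always free of genes. A coding start other than those in the peak lay between the neighbours of 1294 isolated peaks (63.6%), with a median of 1 such gene and a maximum of 53 around a peak near TRIM48 on chromosome 11. Unsequenced assembly gaps lay in the flanks of 81 isolated peaks, and 2031 of the 2035 stayed more than 100 kb from both neighbours when those bases were left out. Chromosome 4 had the highest share of isolated peaks, 154 of 1125 (13.7%), followed by chromosome 18 with 60 of 612 (9.80%), and chromosome 19 had the lowest, 30 of 1604 (1.87%). A median of 10 coding genes lay within 1 Mb of an isolated peak (95% interval 9 to 10), against 18 for the other autosomal peaks.

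Most isolated peaks sat on promoters. A peak was called promoter-associated when it came within 3 kb of the start of any annotated transcript, and 1464 isolated peaks met this (71.9%, 69.9 to 73.9), where the share over all 29942 autosomal peaks was 61% and that over the 27907 other peaks was 60.2%. The class just below the threshold in the plot of shares by gap had nearly the same share, 71.3% (70.3 to 72.2). A coding start site lay inside 1202 isolated peaks (59.1%), where the share over all was 34.9% and that of other peaks 33.1%. In the class just below the threshold it was 54.6% (53.6 to 55.7). The other 262 promoter-associated isolated peaks lay beside a coding start or at the start of a non-coding gene. The 571 distal isolated peaks (28.1%, where the share over all was 39%) divided into 327 within genes and 244 between genes. Start sites on both strands lay inside 461 isolated peaks (22.7%), where the share over all was 12.3% and among other peaks 11.5%. In the class just below the threshold it was 19.6% (18.8 to 20.5). Among peaks with a coding start the 2 groups were nearer, at 36.2% of isolated and 32.5% of other peaks.

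At the same time, 463 isolated peaks had no coding start site within 100 kb (22.8%, 21.0 to 24.6), where the share over all was 10.5% and among other peaks 9.65%. The isolated peaks thus held larger shares at both ends, on coding starts and far from them. A promoter with its own peak nearby would have made a second peak, so this distance is partly set by the choice of members.

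**Figure D2:**
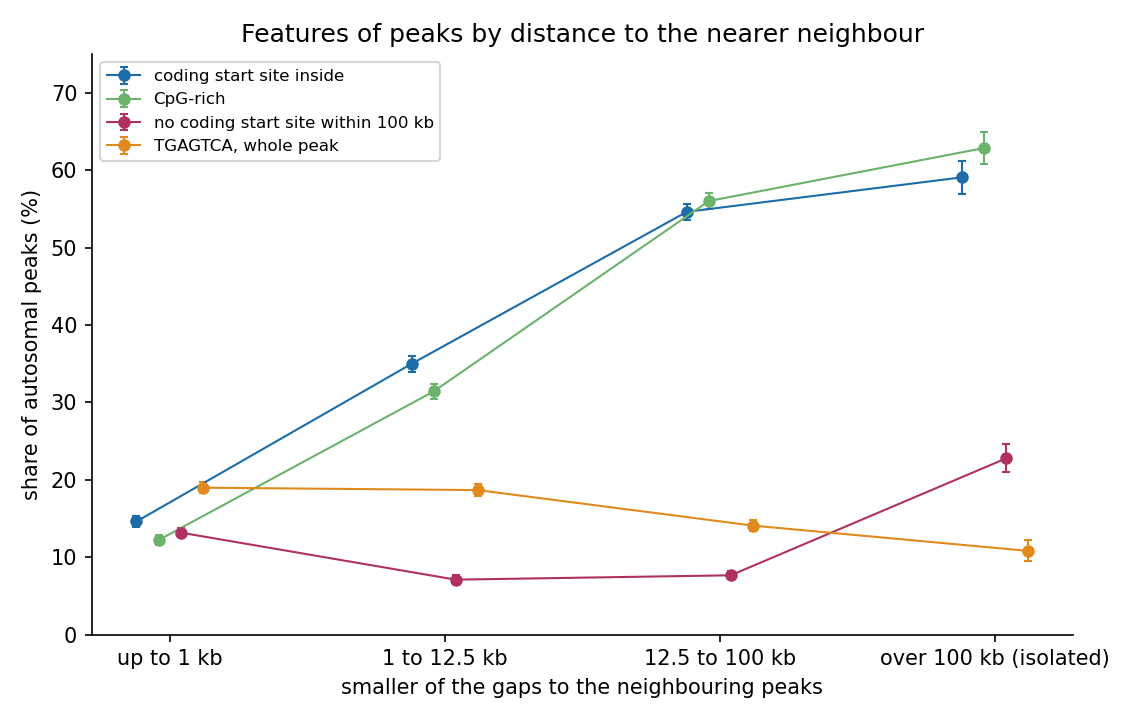
Share of autosomal peaks (vertical, %) with a coding start inside, with CpG-rich sequence, without a coding start within 100 kb, and with TGAGTCA, by class of the smaller gap (horizontal), bars giving 95% Wilson intervals. CpG-rich peaks rise from 12.2% at gaps up to 1 kb to 62.9% among isolated peaks, while TGAGTCA is at its lowest, 10.8%, in the isolated class.

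By gene, 1405 of 19103 autosomal coding genes (7.35%) had an isolated peak within 3 kb of a coding start. Any promoter peak was found at 11841 genes (62%), of which the 1405 made up 11.9%. For 1375 of the 1405 all promoter peaks were isolated. These genes were long, with a median of 91.9 kb (86.5 to 101.2), against 30.4 kb (29.6 to 31.3) for genes with only other promoter peaks and 18.1 kb (17.2 to 18.9) for genes without a promoter peak. Of the 674 that exceeded 100 kb, 502 (74.5%) had 1 peak in the whole gene. Among long genes with only other promoter peaks 436 of 1745 had 1 peak (95% interval 23.01% to 27.07%), although the rule itself bars a second peak in the first 100 kb. PTPRD, a receptor phosphatase of synapse formation, carried 1 peak in 2298.76 kb. NAALADL2 had 1 in 1371.98 kb, NRG1, the neuregulin ligand of ERBB receptors, 1 in 1216.44 kb, and GRIK2, a kainate receptor subunit, 1 in 1118.92 kb. CADM2, a synaptic adhesion molecule, and SOX5, a SOX family transcription factor of neural crest and cartilage development, held 1 peak each in 1115.44 and 1033.04 kb. ASTN2, a neuronal migration gene, held 1 in 991.959 kb, and that peak also covered a start of TRIM32.

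The single peak of a long gene did not always mark its outermost start. In PTPRD the first start site inside the peak lay 1755.23 kb into the gene, and in GRIK2 and ADGRL2, which also held 1 peak each, it lay 431.007 and 494.229 kb in. In CADM2 and EPHA5 the single peak was at the 5' end.

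Among autosomal genes, 9 of 43 of the synaptic adhesion list had an isolated promoter peak, where the share over all coding genes was 7.35%. Only 12 of the 43 had any promoter peak, so 9 of those 12 were isolated (95% interval 46.8% to 91.1%), where the share over all genes with a promoter peak was 11.9%. NLGN1, a neuroligin that binds neurexins across the synapse, had the widest of them at 4050 bases, with 642.96 kb to the left and 186.69 kb to the right. SLITRK5 had a 2860-base peak after 7327.43 kb without another, ADGRL2, a latrophilin receptor, a 2850-base peak, and CADM1 a 1610-base peak with more than 1 Mb on each side. SDK1, SLITRK3, PTPRD, CADM2 and TENM3 completed the list with peaks of 550 to 1390 bases.

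Of 33 neurotransmitter receptor genes 6 had any promoter peak, and 5 of the 6 were isolated. Among them were the GABA receptor gene GABRA2 and the glutamate receptor genes GRIK2, GRIK4 and GRM8, with peaks of 410 to 1190 bases. In the axon guidance list 6 of 28 genes were isolated (21.4%, 10.2 to 39.5) out of 15 with a promoter peak (40.0%, 19.8 to 64.3). The shares over all coding genes and over all with a promoter peak were 7.35% and 11.9%. EPHA5 had a 2900-base peak with 6069.07 kb empty on its left, EPHA4 a 2600-base peak and NEO1, a netrin receptor, a 2210-base peak, while the secreted guidance cue SLIT2 and the netrin receptors UNC5B and UNC5C had peaks of 450 to 960 bases. In the cadherin list 4 of 30 were isolated out of 10 with a promoter peak (40.0%, 16.8 to 68.7), namely PCDH8, PCDH9, CDH7 and CDH19. Of all 30 these made up 13.3% (5.31 to 29.7), an interval that also holds 7.35%. The CDH19 peak stood apart in sequence, with a GC content of 34.3% and a CpG observed/expected ratio of 0.32, where the other 3 had ratios of 0.79 to 0.87.

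Of 55 developmental transcription factors, 37 had a promoter peak and 9 of the 37 were isolated (24.3%, 13.4 to 40.1), where the share over all genes with a promoter peak was 11.9%. MEIS2, a homeodomain factor, had the widest at 4120 bases, followed by GATA6 with 3130 and SOX2, a factor of neural progenitors and pluripotency, with 2200 bases and at least 650 kb on either side. Peaks at SATB1, MECOM, SOX5, TSHZ2 and ZFPM2 had widths of 450 to 1980 bases. In the cAMP signalling list, which feeds into CREB family factors, 31 of 33 genes had a promoter peak and 7 of the 31 were isolated (22.6%, 11.4 to 39.8), an interval that holds the 11.9% over all genes with a promoter peak. They were the adenylyl cyclases ADCY1, ADCY2 and ADCY5, the phosphodiesterases PDE7A and PDE3A, the kinase SIK2 and the regulatory subunit PRKAR2B.

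Of 61 cell cycle and replication genes 57 had a promoter peak and 8 of the 57 were isolated (14.04%, 7.29 to 25.3), close to the 11.9% over all genes with a promoter peak. Among the 8 were the condensin subunit SMC2, the spindle checkpoint genes MAD2L1, BUB3 and TTK, and the replication genes ORC4, ORC5 and MCM6. Nearly all genes of the ribosome and proteasome lists had a promoter peak. The mitochondrial ribosome had 5 isolated of 77 with a promoter peak, the cytosolic ribosome 4 of 80, including RPS6, RPL7 and RPS20, and the proteasome 3 of 47, namely PSME4, PSMG1 and PSMD14. These shares were 6.49% (2.81 to 14.3), 5.00% (1.96 to 12.2) and 6.38% (2.19 to 17.2). Each interval holds the 11.9% over all genes with a promoter peak. The skeletal muscle list had 1 isolated of 7, TTN, and the olfactory receptors 1 of 4 with a promoter peak out of 414, OR2AK2, neither with a start inside the peak. Their intervals, 2.57% to 51.3% and 4.56% to 69.9%, hold 11.9% too. With 1 to 9 isolated genes a list, these shares have wide intervals.

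**Figure D3:**
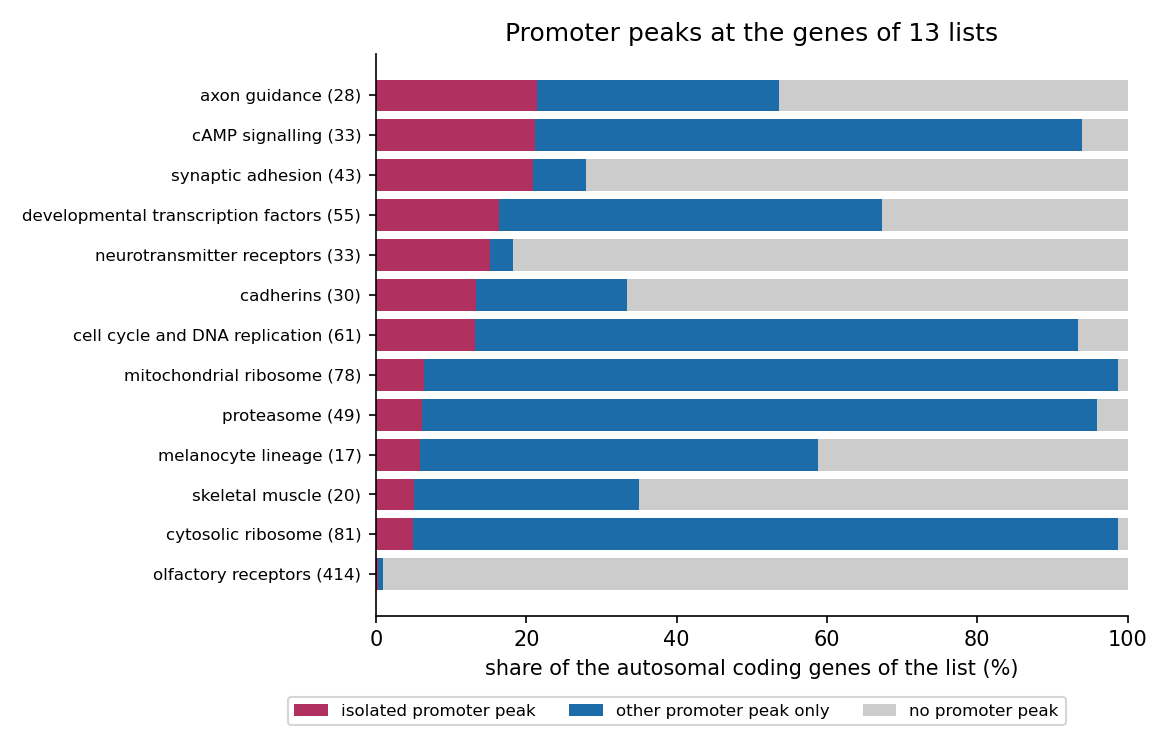
Share of the autosomal coding genes of 13 lists (horizontal, %; number of genes in brackets) with an isolated promoter peak, only other promoter peaks, or none. In the synaptic adhesion and neurotransmitter receptor lists most genes lack a promoter peak and the isolated part makes up most of the rest, whereas in the ribosome and proteasome lists nearly the whole bar is other promoter peaks.

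MITF is the master regulator of melanocytes and a lineage gene of CCS. It was the only isolated gene of the 10 melanocyte lineage genes with a promoter peak, out of 17. The 95% interval for 1 of 10, 1.79% to 40.4%, holds the 11.9% over all genes with a promoter peak. That for 1 of 17, 1.05% to 26.98%, holds the 7.35% over all coding genes. MITF held 12 peaks, and the isolated one covered its most upstream start. This was an 880-base peak at chr3:69739191-69740070 with 196.34 kb to its left and 152.63 kb to its right. It had a GC content of 68.8% and a CpG observed/expected ratio of 0.79.

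Base composition separated the isolated peaks into 2 fields, as it did the other peaks. Their median CpG observed/expected ratio was 0.798 at coding starts and 0.258 at distal sites, against 0.730 and 0.258 in other peaks. CpG-rich peaks, with a ratio above 0.6 and a GC content of at least 50%, numbered 1279 among the isolated (62.9%, 60.7 to 64.9), where the share over all was 33.6% and among other peaks 31.5%. The difference was smaller but kept its sign among peaks with a coding start, at 92.3% (90.6 to 93.6) of the 1202 isolated and 77.0% (76.2 to 77.9) of the 9235 other peaks. Among distal peaks it was 7.53% against 3.83%. Peaks of the class just below the threshold, as drawn in the plot of shares by gap, were close to the isolated ones, with 87.5% CpG-rich at coding starts and 7.90% at distal sites. Over the central 400 bases alone, 63.4% of isolated peaks were CpG-rich, where the share over all was 35.1%. The median GC content was 60.5% over isolated and 53.1% over other peaks. Peaks at ARID2, a chromatin remodelling subunit, MEIS2 and ZEB1, a repressor of epithelial genes, had ratios of 0.91, 0.85 and 0.89. Wide distal peaks were poor in CpG, with ratios of 0.23 in OTUD7A, 0.26 in CLIC5 and 0.13 in the intergenic peak nearest to MDGA2.

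**Figure D4:**
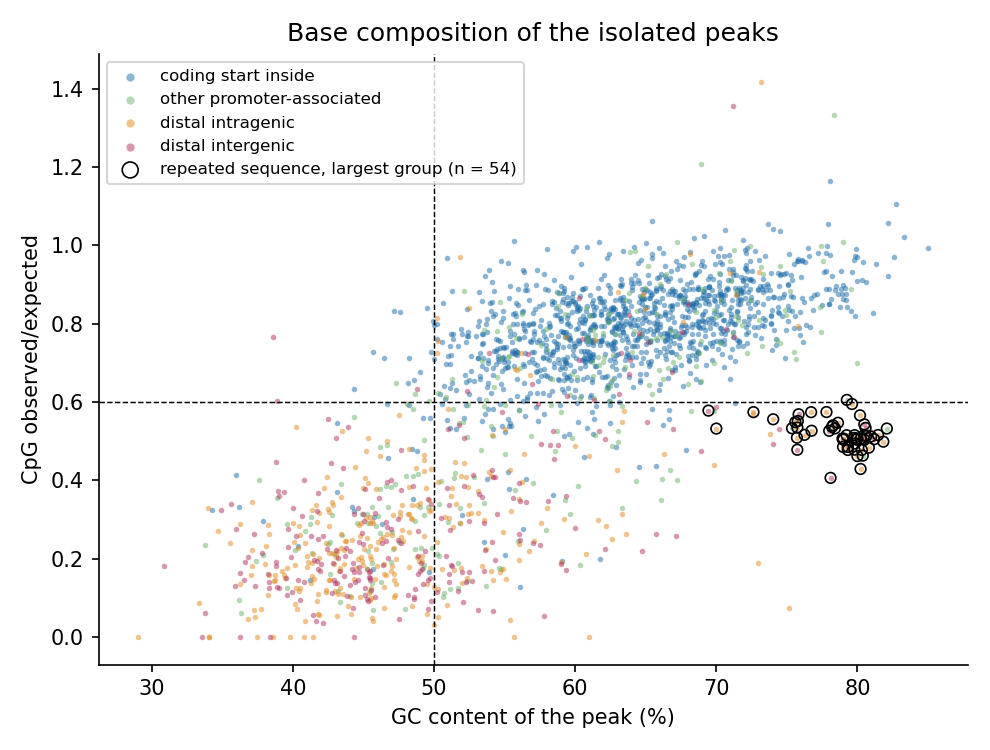
GC content (horizontal, %) against CpG observed/expected (vertical) of the 2035 isolated peaks, coloured by position, with dashed lines at the bounds of CpG-rich sequence. Coding start peaks fill the upper right field and distal peaks the lower left, and the 54 peaks of the largest group of shared repeated sequence (circles) sit apart, around a GC content of 79.3% and a ratio of 0.51.

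The isolated peaks were of ordinary to small width. Their median was 1020 bases (980 to 1050), against 1060 bases (1050 to 1070) for other peaks. Within a kind the difference was larger, 1290 against 1590 bases at coding starts and 630 against 790 bases at distal sites. Peaks of the class just below the threshold lay between, at 1450 bases (1430 to 1470) at coding starts and 700 bases (680 to 730) at distal sites. Wide peaks were few, with 5 of 2035 above 5 kb (0.246%) and 633 of 27907 other peaks (2.27%). The rule did not use width. Nearby stretches were often left as separate peaks, as 10904 autosomal peaks had a neighbour at a gap of up to 1 kb. The part of peak calling in these widths was not tested. Over the 1026 isolated peaks with 1 canonical coding start inside, the peak ran a median of 491 bases upstream and 762.5 bases downstream of it, and the downstream side was longer in 74.1% (71.3 to 76.7). The other 7190 such peaks ran 623 bases upstream and 880 bases downstream, and 71.9% (70.9 to 72.9) were longer downstream.

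TRIB2, a pseudokinase gene of the Tribbles family, had the widest isolated peak. It spanned 13200 bases at chr2:12714821-12728020, with 371 CG dinucleotides, 4 TGAGTCA motifs, and 180.66 and 228.84 kb of empty sequence on its sides. A 7460-base distal peak whose nearest coding gene was EIPR1, at 331.83 kb, came next, followed by 6410 bases within OTUD7A, 6030 bases at CLUH, a gene of mitochondrial protein supply, and 5390 bases over the starts of GPR108 and TRIP10. The peaks at CLIC5, PID1, ADAMTS1, a secreted metalloprotease gene, ARID2, PHACTR3, CDK13, MEIS2, NLGN1 and TCF7L2, a Wnt pathway transcription factor, and a non-coding start nearest to RPL38, completed the widest 15, between 3950 and 4790 bases.

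**Figure D5:**
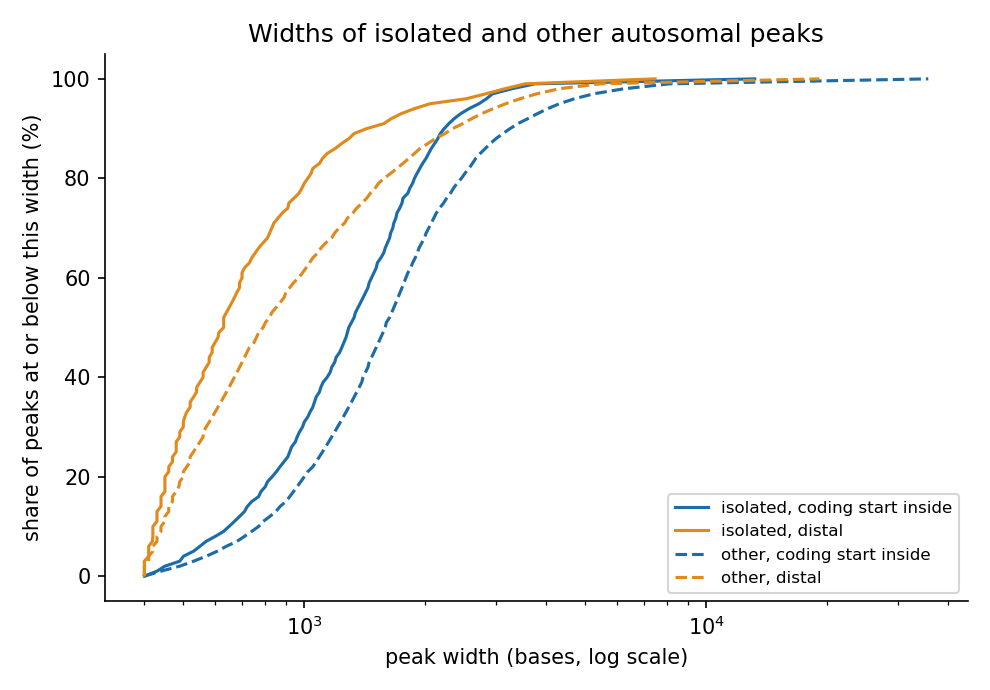
Cumulative share of peaks (vertical, %) by width (horizontal, bases, log scale) for isolated (solid) and other autosomal peaks (dashed), at coding starts and at distal sites. Both solid lines lie left of their dashed counterparts over most of the range, with medians of 1290 and 1590 bases at coding starts and 630 and 790 bases at distal sites.

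Distal isolated peaks were far from coding starts. The median distance was 201476 bases for intergenic and 109980 bases for intragenic peaks, against 39558 and 26305 bases for other peaks. The rule bars a coding start with its own peak nearby, so these distances are partly set by the choice of isolated peaks. The widest intragenic ones were those nearest EIPR1, in OTUD7A, in CLIC5, within DNER (nearest start PID1) and in PHACTR3. The widest intergenic ones lay nearest to SORCS1, a sorting receptor gene (3490 bases, 259.075 kb away), MDGA2 (3260 bases, 597.496 kb), ICE1 (3180 bases, 148.424 kb), SOX6 (3150 bases, 495.209 kb) and XYLT1 (3150 bases, 119.111 kb). The nearest gene is a position and names no target. Several of the peaks farthest from coding starts, such as those nearest to TPTE on chromosome 21 (4810.74 kb) and AQP7B on chromosome 2 (2926.72 kb), flank assembly gaps, where the distance across unsequenced bases is nominal. A 1360-base, CpG-rich peak at a non-coding start 2085.33 kb from TENM3 had no such gap beside it.

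Only long non-coding RNA starts lay within 3 kb of 92 isolated peaks (4.52%, 3.70 to 5.51), where the share over all was 5.59% and among other peaks 5.67%, so the intervals met. The widest were a 4240-base peak at ENSG00000285648, a 3350-base peak at MIR181A2HG, the host transcript of a miR-181 locus, a 2980-base peak at ENSG00000235978, a 2850-base peak at LINC00662 and a 2470-base peak at ENSG00000258464.

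Motifs were counted as exact letters on both strands, over the whole peak and over its central 400 bases. TGACGTCA was found in 60 isolated peaks (2.95%, 2.30 to 3.78), where the share over all was 2.6% and among other peaks 2.57%. Over the central bases the shares were 1.33% (0.913 to 1.92) of isolated, 0.860% (0.758 to 0.975) of other and 0.892% of all peaks. The class just below the threshold held TGACGTCA in 3.33% (2.97 to 3.73), and in 1.31% (1.09 to 1.57) over the central bases. Of the 60, 50 had a coding start inside. At single canonical starts, 36 of 47 occurrences (76.6%, 62.8 to 86.4) lay within 300 bases upstream, at a median of 68 bases upstream, and 66.0% (61.3 to 70.4) did so in other peaks. MAF, a bZIP transcription factor, had the widest such peak at 3750 bases, and KCTD1, GPBP1, MYH10, PDE7A, CEP57, CAMK2D and FOXP2, a transcription factor of brain development, had peaks of 2370 to 3380 bases. RASAL2 and a site nearest to MVB12B were the distal examples.

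The AP-1 motif TGAGTCA was rarer in isolated peaks, 10.8% (9.53 to 12.2), where the share over all was 16.9% and among other peaks 17.4%. Over the central 400 bases the shares were 3.49%, 5.34% and 5.48%. TGANNTCA, which includes TGACGTCA among its matches, was in 25.4% of isolated peaks, 41% of all and 42.1% of other peaks, and the central shares were 11.1%, 16.7% and 17.1%. Stretches with over 4 triplets of TGA or TCA, spaced by at most 5 bases, were in 72 isolated peaks (3.54%), where the share over all was 6.79% and among other peaks 7.03%, with central shares of 1.13%, 1.87% and 1.92%. The class just below the threshold was nearer to the isolated peaks. It held TGAGTCA in 14.1%, TGANNTCA in 34.3% and triplet stretches in 4.36%, with central shares of 4.29%, 11.9% and 1.17%. TRIB2, the PID1 neighbourhood, ADAMTS1, PHACTR3, MEIS2, SMARCA2, MAF, ZEB1 and INSL6 held such stretches, and the peaks nearest to XYLT1 and at INSL6 held 2 each.

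The E-box CATGTG was in 27.3% of isolated peaks, 39.7% of all and 40.6% of other peaks, and CACGTG in 18.5%, 20.5% and 20.6%. Letters typical of CpG-rich promoters ran the other way, with GGGCGG in 72.4% of isolated, 56.6% of all and 55.5% of other peaks. CCGGAAGT, an ETS site, was in 6.04%, 5.02% and 4.95%, and CGCATGCG in 3.14%, 2.37% and 2.31%. In the class just below the threshold GGGCGG was in 72.5%, CATGTG in 32.4% and CACGTG in 20.6%. CCGGAAGT was there in 7.53% and CGCATGCG in 3.86%. Over the central 400 bases, in the order isolated, all and other, CATGTG was in 10.3%, 15.9% and 16.3%, CACGTG in 6.68%, 6.87% and 6.88%, GGGCGG in 59.7%, 40.4% and 38.9%, CCGGAAGT in 3.39%, 2.21% and 2.12%, and CGCATGCG in 1.18%, 1.02% and 1.003%. Base composition and the share of coding starts also differed between isolated and other peaks, and their part in these values was not tested. Restricted to peaks with a coding start, TGAGTCA was in 2.08% of isolated and 3.15% of other peaks over the central bases, TGACGTCA in 1.91% and 1.73%, GGGCGG in 78.8% and 71.9%, CCGGAAGT in 4.91% and 5.31%, and CGCATGCG in 1.75% and 2.51%. Over the whole of these peaks, which were wider in the other group, TGACGTCA was in 4.16% of isolated and 5.24% of other peaks, CCGGAAGT in 8.99% and 12.1%, and CGCATGCG in 4.91% and 5.72%, each the reverse of the order over all kinds of peak. A match is a string of letters and was not measured as a binding site.

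Repeated sequence was uncommon among promoters and common among distal members. Peaks in which at least 50% of the 24-base words of the central 400 bases occur 10 or more times in hg38 numbered 157 (7.71%, 6.63 to 8.96), where the share over all was 11.5% and among other peaks 11.8%. Only 1 of them had a coding start inside and 127 were distal, or 22.2% of distal isolated peaks, against 18.7% of other distal peaks and 22.2% of distal peaks in the class just below the threshold. Of the 157, 120 fell into 6 groups whose members were linked by at least 24 shared words. The largest group held 54 peaks on 16 chromosomes, 46 of them distal (8.06% of distal isolated peaks), with GC contents of 69.4% to 82.1% and a median width of 530 bases. These groups were formed after values were seen and carry no test.

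Peaks in LRRC4C and RBM19 belong to this group. In LRRC4C, a synaptic adhesion gene, the peak had 990 bases, a GC content of 80.8%, 4667.53 kb to its left and 1912.75 kb to its right. The 640-base peak in RBM19 held words that occur a median of 2490 times in the genome. Other members were a 1450-base peak nearest to ALDH1A1, the widest, and peaks in SV2C, CCDC63, NBAS, LRP2, PLCL1, FUT8 and PRKCB. With the words of this group pooled, 56 isolated peaks (2.75%) and 487 other peaks (1.75%) shared at least 24 of them. The group next in size, of 48 peaks with a median GC content of 48.7%, ran the other way, its words being shared by 114 isolated (5.60%) and 3880 other peaks (13.9%), and by 15.2% and 20.7% of distal peaks. A smaller group of 9, with GC contents of 54.8% to 61.4% and peaks nearest to BCHE, CLNK, NMUR2, AGMO and others, had counterparts in 7 other peaks. Because the words came from the isolated peaks, these counts favour the isolated group. Reads that match many positions cannot be assigned to 1 of them by sequence alone, and the part of read placement in these peaks was not tested.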

How the data were processed

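H3K27ac ChIP-seq was performed on 3 samples of SU-CCS-1 cells, with 3 input samples, grouped by title. Per the methods of the study and the submitters' processing notes, the authors aligned 2 × 50 bp reads to hg38 with BWA-MEM (BWA 0.7.10-r789), removed duplicates, called broad peaks with MACS2 2.2.6 against input, and removed ENCODE denylisted regions. They deposited 1 merged list of peak coordinates (the start and end of each peak, unit other), and how replicates were merged is not given in the sources used here. Starts and widths lay on a grid of 10 bases with a minimum width of 400 bases. No score or read count was in the list, so the depth per peak is unknown.

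Gaps were measured on the sorted list, and peaks were compared with GENCODE 44 and hg38. Motifs, composition and 24-base words were counted with scripts (Python 3.11.15, pandas 2.3.3, pysam 0.24.0) tested on simulated intervals and sequences. Shares carry Wilson intervals (statsmodels 0.14.6) and medians order-statistic intervals, both at 95%. No comparison was tested, since the list has no replicate values.

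The members and the gene lists were chosen with earlier results of these data known. Named peaks were the 15 widest, the 10 with the largest smaller gap, the 10 farthest from a coding start, up to 10 holding TGACGTCA and up to 10 holding triplet runs by width, the 5 widest of each distal kind and of those at non-coding starts only, 3 on each side of the threshold, and up to 12 genes a list. Peaks of the repeated groups, CDH19, LRRC4C and the long genes with a single peak were singled out after their values were seen. The hg38 copy was upper case, so the soft-masked share was replaced by the share of repeated 24-base words. A few genes and sequences are not reported here.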

Additional observations from a re-analysis of the deposited data

How the results depend on the processing

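No paired analysis was possible because replicate columns are lacking in the list, and no replicate was left out for the same reason. The soft-masked share and its alternatives were not run, since the reference carries no lower-case letters.

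Of 55 alternative values, 30 stayed within the main interval, or within 1.5 times a main count, and 25 moved. With a gap threshold of 50 kb there were 4381 isolated peaks, with a median width of 1100 bases and 15.7% without a coding start within 100 kb. At 200 kb there were 770, of which 68.7% were promoter-associated, 60.6% CpG-rich and 29.9% without a coding start within 100 kb, with a median width of 930 bases. Leaving out the narrowest 25% of peaks (up to 620 bases) before measuring gaps gave 79.0% promoter-associated, a median width of 1260 bases, 17.3% far from coding starts, 69.0% CpG-rich and 13.5% with TGAGTCA. Joining peaks within 1 kb gave 69.4%, 1110 bases, 25.3%, 59.0% and 14.04% in the same order. The promoter-associated share was 69.0% with a 1 kb window and 62.9% with coding transcripts only. Over the central 400 bases TGACGTCA was in 1.33% and TGAGTCA in 3.49%. With a 1 kb window the skeletal muscle and olfactory receptor lists each fell to 0 isolated genes. Counting peaks whose median 24-base word occurs 50 or more times, an alternative chosen after seeing the data, gave 5.60%.

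Adding the X chromosome gave 2176 isolated peaks, keeping end peaks 2050, and not counting assembly gap bases 2031, the last also chosen after seeing the data.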

Other observations

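Isolated peaks also followed one another. Of the 2035, 732 had no isolated peak as a direct neighbour, and the others came in rows of 2 to 11 consecutive isolated peaks. The longest rows of 11 lay at chr3:160564311-169663610, with the starts of KPNA4, PPM1L, NMD3, SLITRK3, PDCD10 and SERPINI1, GOLIM4 and MECOM, and at chr9:62376181-67613900, a stretch beside assembly gaps with ZNG1E and ZNF658. A row of 8 on chromosome 13 spanned 11.7 Mb from DIAPH3 through TDRD3 and PCDH9 to DACH1, and a row of 8 on chromosome 18 held CDH7, CDH19, DSEL, TMX3 and DOK6.

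More than 1 isolated peak lay in the body of 68 coding genes. CACNA2D3, a calcium channel subunit gene, DST, MAGI2, NLGN1, RBMS3 and SPAG16 held 3 isolated peaks each. In SPAG16 none of the 3 was at a start, and in MAGI2 the 2900-base peak at the start lay beyond a gap of 891.99 kb from its neighbour. DST had peaks at separate coding starts of 1640 and 800 bases with a 1110-base intragenic peak between them. On the X chromosome, which the rule left out, 141 peaks had both gaps above 100 kb.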
